A study of Mus musculus with 7 samples.

Results

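The 3 cardiac myosin heavy chain genes of the mouse, Myh6, Myh7 and Myh7b, were taken by name from a table of 23420 gene rows, and each name matched 1 row. The table held RNA levels from the hearts of 7 untreated mice in a model of myocarditis caused by immune checkpoint inhibitors (ICI-myocarditis). The 3 mice with ICI-myocarditis were Ctla4+/-;Pdcd1-/-, and the 4 controls were Ctla4+/+;Pdcd1-/-, so that both groups lacked Pdcd1 (the checkpoint receptor PD-1) and differed in the number of copies of Ctla4, another checkpoint receptor of T cells. All mice were given as 3 to 6 weeks old, with no age for each animal, and the sources used here do not give their sex or litters. The protocol named flash-frozen cardiac ventricle, although the tissue label read whole heart. Genetic loss of the receptors stood in for treatment with antibodies, and each library was taken as 1 animal, which the labels imply without stating it.

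Myosin heavy chains are the motor proteins of the thick filament. Myh6 encodes α-myosin, the fast isoform that dominates the adult mouse ventricle, and Myh7 encodes β-myosin, the slower isoform of the fetal ventricle, whose transcript is known to return in stressed rodent hearts. Thyroid hormone favours Myh6 over Myh7. Myh7b is a distant and weakly expressed relative. α-Myosin is the known T cell autoantigen of this form of myocarditis, which is why its level in the target organ is of interest.

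Myh6 and Myh7 lie head to tail on chromosome 14, and Myh7b lies on chromosome 2. In GRCm38, Myh6 (ENSMUSG00000040752.16) spans chr14:54941921-54966927 on the minus strand, with 39 exons in its main transcript. Myh7 (ENSMUSG00000053093.16) spans chr14:54970684-54994626 on the same strand, with 41 exons, and 3756 bases separate the 2 genes. Myh7b (ENSMUSG00000074652.3) spans chr2:155611212-155634307 on the plus strand, with 42 exons. Each gene carries a microRNA hairpin in an intron, Mir208a in intron 29 of Myh6, Mir208b in intron 31 of Myh7 and Mir499 in intron 19 of Myh7b. The main mature products are shown because the 3 hosts are tied together by a near-common seed, here in capitals (bases 2 to 8, from RefSeq on GRCm38.p6).
miR-208a-3p: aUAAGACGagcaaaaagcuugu
miR-208b-3p: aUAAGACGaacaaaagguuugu
miR-499-5p: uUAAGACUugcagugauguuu
miR-208a-3p and miR-208b-3p shared the whole seed and differed at 3 of 22 bases. The seed of miR-499-5p was the same for bases 2 to 7.

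How far reads of Myh6 and Myh7 could be told apart mattered for their ratio, because Myh6 was far the more abundant. Their coding sequences were identical at 91.5% of alignment positions, gaps included, and the longest identical run was 245 bases. Without the gaps, 5322 of 5800 aligned bases were identical. Of all stretches of 150 bases in the main transcript of Myh6, 5.53% also occurred in that of Myh7. The share was 22.6% for stretches of 50 bases. The most different 90 bases within 1 exon are printed below from the GRCm38 transcripts, with the 30 differing bases in capitals, from exon 25 of Myh6 (chr14:54952247-54952336, minus strand) and exon 27 of Myh7 (chr14:54980322-54980411, minus strand).
Myh6: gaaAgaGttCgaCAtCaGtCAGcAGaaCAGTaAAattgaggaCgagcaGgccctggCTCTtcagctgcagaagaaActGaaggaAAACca
Myh7: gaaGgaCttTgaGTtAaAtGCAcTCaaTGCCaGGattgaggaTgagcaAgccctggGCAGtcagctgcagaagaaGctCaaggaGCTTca
Reads from such a stretch can be placed. By contrast, 200 bases of exon 36 of Myh6 (chr14:54944348-54944547, minus strand) were identical to exon 38 of Myh7 (chr14:54972758-54972957, minus strand), and a read from within them could belong to either gene.
Myh6 and Myh7: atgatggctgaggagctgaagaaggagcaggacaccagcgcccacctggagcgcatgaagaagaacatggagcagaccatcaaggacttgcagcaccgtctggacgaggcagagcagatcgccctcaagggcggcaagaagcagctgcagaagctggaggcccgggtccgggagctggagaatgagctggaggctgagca
How the authors' counting treated reads that fit both genes is not given in the sources used here, so the Myh7 level carries that uncertainty. With gaps included, the coding sequence of Myh7b was 71.7% identical to that of Myh6 and 71.8% identical to that of Myh7. Its main transcript shared no stretch of 50 bases with either of theirs.

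Depth ranged from 20931730 to 39037176 reads per library, recovered from the deposited values. Levels are given as normalized counts, that is reads divided by 1 size factor per library. A gene was called changed at an adjusted p under 0.05 in a limma fit of log2(normalized count + 1) over 15236 tested genes, and all fold changes below are on that scale, as ICI-myocarditis over control. The fit called 2392 genes (15.7%), 1783 higher (11.7%) and 609 lower (4.00%). These shares are the background for the counts of called genes in each list below. The Ctla4 row read 29.2 to 113 normalized counts in the controls and 251 to 373 in ICI-myocarditis, and the Pdcd1 row read 2.50 to 244 and 1096 to 1481. The highest control value for both genes was in control 2, which also had a summed T cell marker level of 1868 against 143 to 238 in the other controls. Which parts of the genes the alleles lack is not given here, so these rows do not check the genotypes. All 9 tested T cell markers rose, with sums of 7919 to 12234 in ICI-myocarditis, and all 8 tested macrophage markers rose as well. The ventricular light chain gene Myl2 was abundant in all 7 libraries, and the 7 listed atrial markers were uneven. Bmp10 was at 0 in all libraries, Sln, Mybphl, Myl7 and Myl4 read at most 3.70, 10.1, 48.0 and 72.6 normalized counts, Stard10 read 105 to 643, and Nppa, which stressed ventricle also makes, read 6265 to 174572. All groups below compare 4 controls with 3 ICI-myocarditis libraries.

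Of the 3 myosin genes, 1 was called, Myh7b, which fell, where 4.00% of tested genes were called lower. Both Myh6 and Myh7b had groups that did not overlap, with ICI-myocarditis the lower, as had 11.3% of tested genes. Myh7 was called in neither direction, and no member was called higher, where 11.7% of tested genes were.

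Myh6, the autoantigen gene, had lower levels in every ICI-myocarditis library than in any control, but the difference did not pass the test. Its normalized counts were 1196025, 700585, 897295 and 1148183 in controls 1 to 4. They were 493374, 669922 and 402804 in ICI-myocarditis 1 to 3. Control 2 was the lowest control and ICI-myocarditis 2 the highest of its group, and these values were close to each other. The means were 985522 ± 230755 (SD, n = 4) and 522033 ± 135846 (SD, n = 3), a mean 47.0% lower. The log2 fold change was -0.92 (SE 0.415, 95% interval -1.85 to 0.02), with an adjusted p of 0.174 by limma. Without control 2 it was -1.07 with an adjusted p of 0.0692, the lowest of the fits with 1 library left out. With any other library left out, it was -1.11 to -0.75 with an adjusted p of 0.225 to 0.459. A count model gave the same size of difference and another call, since DESeq2 on the recovered reads gave -0.91 with an adjusted p of 0.00893, where it called 22.6% of genes. The authors' deposited table gives a log2 fold change of -0.917 with an adjusted p of 0.0111, and 20.2% of its genes with an adjusted p are under 0.05.

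Even at its lowest, the Myh6 transcript was among the most abundant in the heart. It took 3.64%, 2.71%, 3.01% and 3.07% of all reads in controls 1 to 4 and 1.73%, 2.37% and 1.50% in ICI-myocarditis 1 to 3. Its rank by reads among all genes was 2 in controls 1, 3 and 4 and 3 in control 2 and in all ICI-myocarditis libraries. The inflamed hearts thus still held Myh6 at 402804 normalized counts or more.

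**Figure D1:**
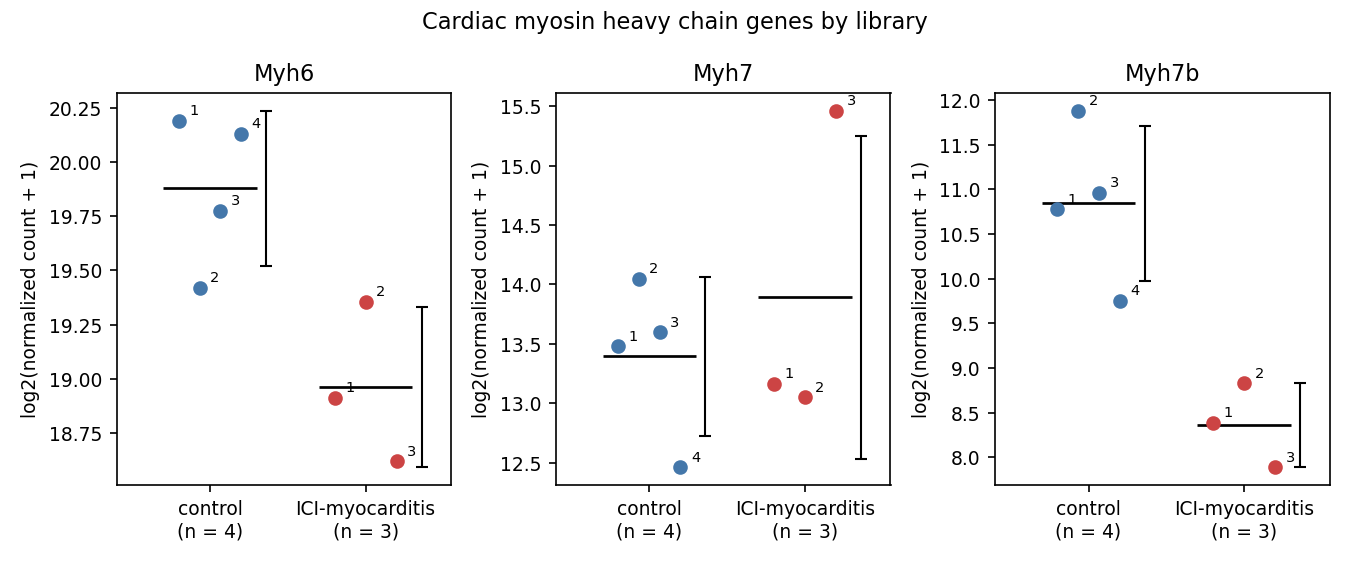
Levels of Myh6, Myh7 and Myh7b in each library as log2(normalized count + 1) (points numbered by replicate, line at the group mean, bar for ± 1 SD). The groups do not overlap for Myh6 or Myh7b, and for Myh7 ICI-myocarditis 3, with 45105 normalized counts, stands highest while its group's other libraries lie within the control range.

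The lower Myh6 level came with lower levels of other cardiomyocyte genes. In a reference of 16 cardiomyocyte genes, which include the filament protein genes Ttn and Actn2, the troponins and the calcium pump gene Atp2a2, all 16 had log2 fold changes below zero, from -1.30 to -0.06. Their median was -0.67, where the median of all tested genes was -0.02. None was called by limma or by edgeR, with 2 lower at an unadjusted p under 0.05 and 3 called lower by DESeq2. Set against this reference within each library (log2 of Myh6 over the reference's geometric mean), Myh6 stood at 2.90 ± 0.251 (SD, n = 4) in controls and 2.69 ± 0.234 (SD, n = 3) in ICI-myocarditis. The difference of -0.21 did not pass an exact two-sided permutation test (p = 0.286, adjusted p = 0.286 over 4 ratios), and the groups overlapped. In bulk tissue, fewer cells of a type and less RNA per cell cannot be told apart. T cell and macrophage markers rose between the same groups, and their part in the Myh6 difference was not tested. The summed cardiomyocyte reference overlapped between groups, at 2430525 to 5676739 in controls and 1878560 to 3066041 in ICI-myocarditis.

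**Figure D2:**
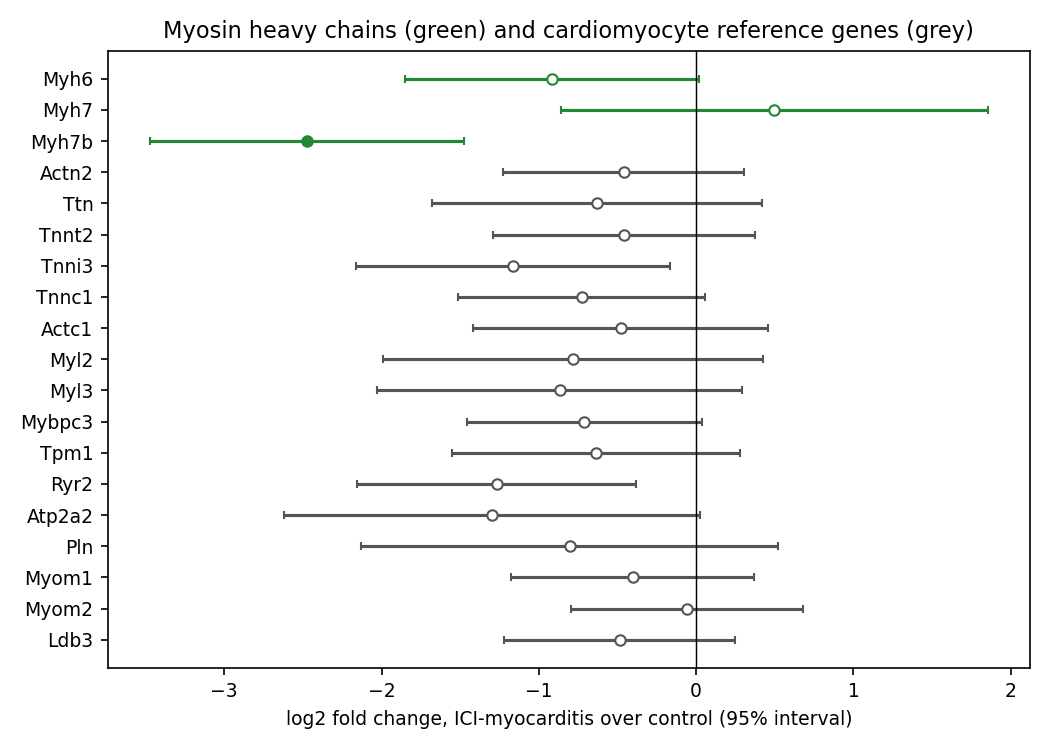
Log2 fold changes (ICI-myocarditis over control, points with 95% intervals, filled where the adjusted p is under 0.05) of the 3 myosin genes beside the 16 cardiomyocyte reference genes. Myh6 at -0.92 lies within the reference's range of -1.30 to -0.06, Myh7b at -2.47 lies below it and Myh7 at 0.50 lies above it.

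Myh7 was not called, and 1 library carried its higher mean. Its normalized counts were 11414, 16953, 12378 and 5635 in controls 1 to 4. They were 9185, 8480 and 45105 in ICI-myocarditis 1 to 3. ICI-myocarditis 1 and 2 thus lay inside the control range and ICI-myocarditis 3 lay far above it. The means were 11595 ± 4650 (SD, n = 4) and 20923 ± 20945 (SD, n = 3). The log2 fold change was 0.50 (SE 0.603, 95% interval -0.86 to 1.85), with a limma adjusted p of 0.636. Without ICI-myocarditis 3 it was -0.29 (adjusted p 0.797), and a limma-voom fit that weights libraries by quality gave -0.15 (adjusted p 0.819), so the direction turned in both cases. Without control 2 it was 0.71 (adjusted p 0.447). The authors' deposited table gives 0.852 with an adjusted p of 0.330.

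The balance of β- to α-myosin transcripts was measured within each library, which removes the size factor. Myh7 stood at 0.954%, 2.42%, 1.38% and 0.491% of the Myh6 level in controls 1 to 4. In ICI-myocarditis 1 to 3 it stood at 1.86%, 1.27% and 11.2%. ICI-myocarditis 1 and 2 fell between the lowest and highest controls, and ICI-myocarditis 3 was above every other library. As a share of all reads of both genes, Myh7 held 10.1% in ICI-myocarditis 3 (95% Wilson interval 9.99% to 10.1%, counting error only). The mean log2 ratio was -6.48 ± 0.965 (SD, n = 4) in controls and -5.07 ± 1.68 (SD, n = 3) in ICI-myocarditis, a difference of 1.41, or 2.66-fold. It did not pass the exact two-sided permutation test over the 35 possible splits (p = 0.257, adjusted p = 0.286 over 4 ratios), whose smallest possible p is 0.0286. Without ICI-myocarditis 3 the difference was 0.46. The high ratio of that library came from both sides, since it had the highest Myh7 and the lowest Myh6 of all 7.

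**Figure D3:**
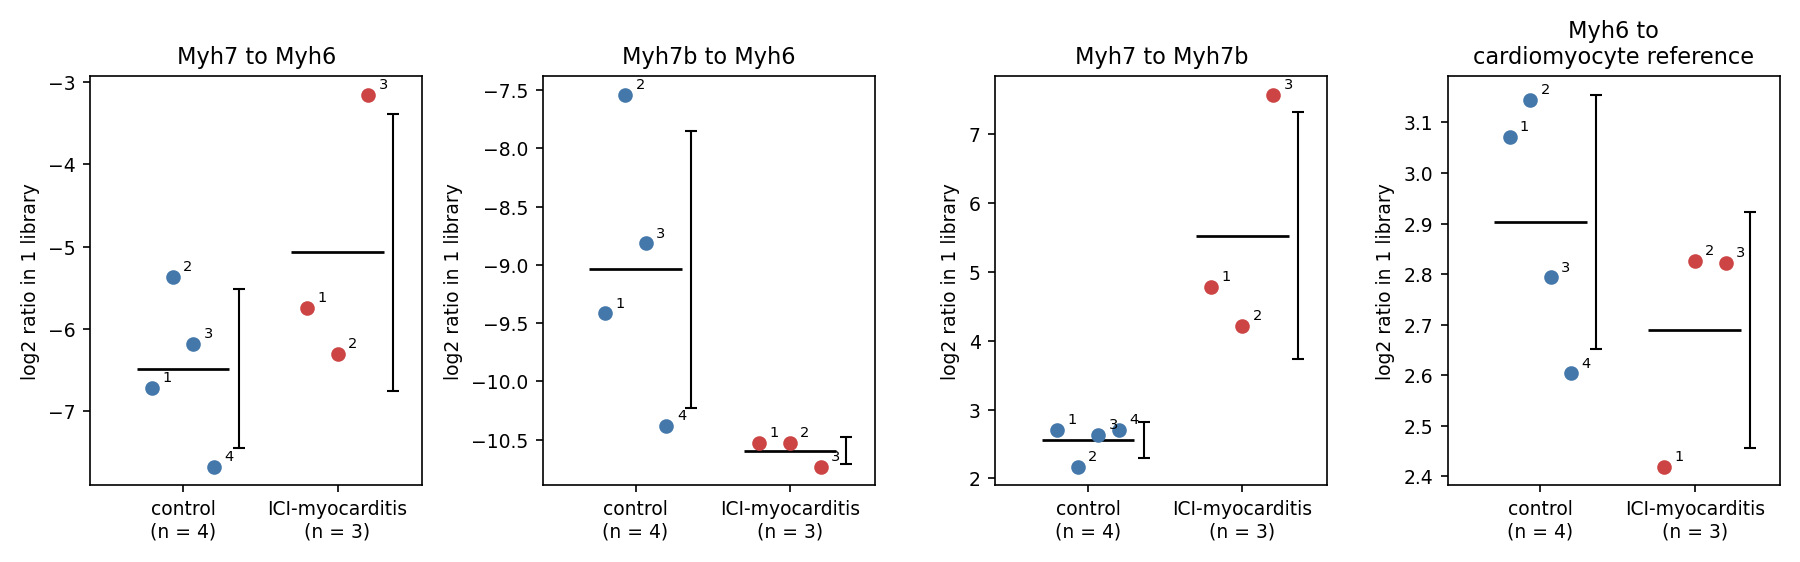
Within-library log2 ratios of Myh7 to Myh6, Myh7b to Myh6, Myh7 to Myh7b, and Myh6 to the cardiomyocyte reference (points numbered by replicate, line at the mean, bar for ± 1 SD). ICI-myocarditis 3 stands alone at -3.16 for Myh7 to Myh6, and the groups are apart for both ratios that include Myh7b.

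ICI-myocarditis 3 also had the highest summed T cell (12234), macrophage (102566) and fibroblast (149687) marker levels and the lowest summed cardiomyocyte reference (1878560) of the 7 libraries. These sums were 7919 to 8334, 64873 to 67313, 77110 to 121733 and 2692664 to 3066041 in the other ICI-myocarditis libraries. Their part in the Myh7 level of this library was not tested.

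Myh7b fell in ICI-myocarditis by more than any other myosin heavy chain tested. Its normalized counts were 1751, 3762, 1992 and 861 in controls 1 to 4. They were 334, 454 and 236 in ICI-myocarditis 1 to 3. Every ICI-myocarditis library was below every control, although the controls themselves spread over 4.37-fold. The means were 2092 ± 1215 (SD, n = 4) and 341 ± 109 (SD, n = 3). The log2 fold change was -2.47 (SE 0.443, 95% interval -3.47 to -1.47), a 5.55-fold lower level, with a limma adjusted p of 0.00762. Without control 2, the library with the highest Myh7b level and the T cell signal, it was -2.13 with an adjusted p of 0.00297. The authors' deposited table gives -2.62 with an adjusted p of 4.82e-07. Among tested genes, 34 had a lower fold change.

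The log2 fold change of Myh7b lay below those of all 16 cardiomyocyte reference genes, but its call was lost when libraries were scaled by that reference. With each library scaled to the 16 reference genes, an alternative chosen after seeing the data, the log2 fold change was -1.77 with an adjusted p of 0.0947. Under the same scaling Myh6 was at -0.21 (adjusted p 0.398) and Myh7 at 1.20 (adjusted p 0.294). Relative to Myh6, Myh7b stood at 0.147%, 0.537%, 0.222% and 0.0751% in controls 1 to 4 and at 0.0678%, 0.0679% and 0.0589% in ICI-myocarditis 1 to 3. The ICI-myocarditis values were nearly equal, and control 4 lay just above them. The log2 difference of this ratio was -1.56 (2.94-fold), with p = 0.0571 in the exact permutation test (adjusted p = 0.114 over 4 ratios).

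Myh7 and Myh7b moved together across the controls and apart in ICI-myocarditis. Myh7 was 6.51, 4.50, 6.21 and 6.54 times the Myh7b level in controls 1 to 4. In ICI-myocarditis 1 to 3 it was 27.5, 18.7 and 190.2 times that level. The control ratios were within a narrow band, and the lowest ICI-myocarditis ratio was well above it. The log2 difference was 2.97, or 7.83-fold. Its exact permutation p was 0.0286, the smallest that 35 splits can give, with an adjusted p of 0.114 over 4 ratios. A ratio that alone reaches this smallest p cannot pass after the adjustment, so the adjusted p could not decide here. Without ICI-myocarditis 3 the difference was 1.95.

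Genes of vascular cells also moved between the groups that separate Myh7b. Of 7 endothelial markers, 3 fell and none rose (median log2 fold change -1.04, sums of 29127 to 75219 in controls and 21532 to 27860 in ICI-myocarditis), with no riser at an unadjusted p under 0.05 by limma or called by DESeq2 or edgeR. Their sum ran from control 2 through controls 1 and 3 to control 4. Myh7b ran from control 2 through controls 3 and 1 to control 4. Of 6 smooth muscle markers, 3 fell (median -1.15, sums of 12390 to 23929 and 7409 to 11797). The smooth muscle sum was highest in control 1, at 23929, and was 16176 in control 2. With 1 library left out, 2 to 6 endothelial and 0 to 4 smooth muscle markers were called lower. No smooth muscle marker was called without control 1, control 3 or ICI-myocarditis 2 or with scaling by library total, and 1 endothelial marker was called with that scaling. The part of these cells in the Myh7b difference was not tested. On the opposite strand, Trpc4ap overlaps the end of Myh7b by 37 bases, and it read 3851 ± 743 (SD, n = 4) and 3471 ± 107 (SD, n = 3) with a log2 fold change of -0.13 (adjusted p 0.739). The antisense genes that overlap Myh7 number 4, Mhrt among them, and whether the counting used strand is not given in the sources used here. No gene row carried the name Mhrt, so its level was not read here.

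Per kilobase of transcript, the order of the 3 genes was the same in every library, with Myh6 above Myh7 and Myh7 above Myh7b. In controls 1 to 4, normalized counts per kilobase were 195653, 114606, 146785 and 187826 for Myh6 and 284, 610, 323 and 140 for Myh7b. In ICI-myocarditis 1 to 3 they were 80709, 109590 and 65893 for Myh6 and 54.1, 73.6 and 38.3 for Myh7b. Myh7 lay between, at 919 to 2763 per kilobase in controls and 1497, 1382 and 7352 in ICI-myocarditis. The ranges of the genes did not touch at any step of this order.

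Rows for the intronic hairpins were read as a further measure of transcription across each locus. The libraries were made from total RNA and not from small RNA, so these rows count reads over the hairpin sequence and not the mature miRNAs printed above. Mir208b read 183, 322, 208 and 68.8 normalized counts in controls 1 to 4 and 126, 119 and 103 in ICI-myocarditis 1 to 3. The ICI-myocarditis values lay within the control range, and the log2 fold change was -0.56 (adjusted p 0.465). Mir208a, in the far more abundant host Myh6, read 39.3, 58.0, 42.4 and 16.3 in controls and 22.5, 14.5 and 23.7 in ICI-myocarditis. Its groups also overlapped, at a log2 fold change of -0.81 (adjusted p 0.292). Mir499 had 7 reads in all controls together and 1 in ICI-myocarditis, and was not tested.

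The hairpin of Myh7 did not share the high value of its host in ICI-myocarditis 3. For each 1000 normalized counts of Myh7, Mir208b read 16.1, 19.0, 16.8 and 12.2 in controls 1 to 4. It read 13.7, 14.0 and 2.29 in ICI-myocarditis 1 to 3. The library with the highest Myh7 level therefore had a Mir208b level of 103, below that of the other ICI-myocarditis libraries.

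Across the controls, 4 rows from these loci kept a single order. Myh7, Myh7b, Mir208a and Mir208b each ran from control 2 through controls 3 and 1 to control 4, with 3.01-, 4.37-, 3.56- and 4.68-fold between the extremes. Myh6 had another order, with control 1 highest and control 2 lowest, and 1.71-fold between its extremes. For the hairpins, the order of controls 3 and 1 lay within counting error, with 38 and 39 reads of Mir208a and 186 and 182 of Mir208b. Among the controls, the highest and lowest libraries of Mir208a were thus those of Myh7 and Myh7b and not those of its own host. Over the 7 libraries, Pearson's r was 0.79 between Myh7b and Mir208a, 0.75 between Myh7b and Mir208b and 0.17 between Myh6 and Mir208a. Myh7, whose level in ICI-myocarditis 3 the hairpins did not share, had an r of 0.35 with Mir208a and 0.25 with its own hairpin Mir208b. These are descriptions over libraries that share the group difference.

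**Figure D4:**
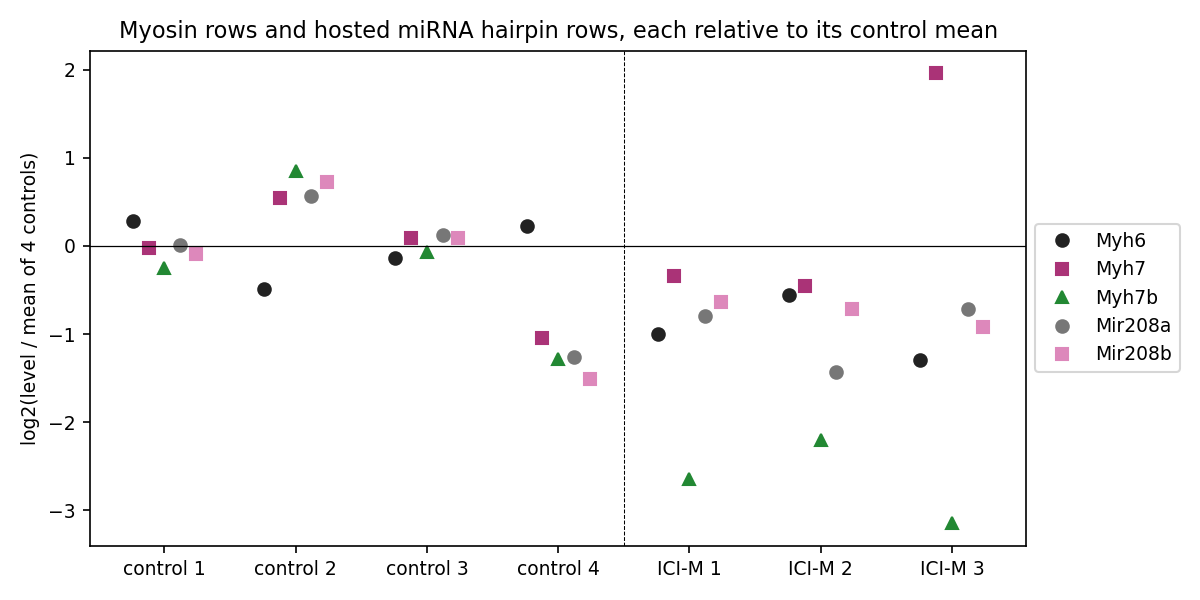
Levels of Myh6, Myh7, Myh7b, Mir208a and Mir208b in each library, as log2 of the level over the mean of the 4 controls (ICI-M is ICI-myocarditis, and points are set side by side within a library for legibility). In controls all but Myh6 run highest in control 2 and lowest in control 4, and in ICI-myocarditis 3 Myh7 is high while Mir208b is not.

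The genes whose pattern over the 7 libraries was most like each member were sought among 11400 genes with a mean of at least 100 normalized counts. For Myh6 the closest were Ryr2 (r = 0.998), the calcium release channel of the cardiomyocyte, then Clasp1 (0.995), Asb2 (0.993) and Bcl7a (0.992), and 664 genes had r over 0.9. For Myh7b they were Plcb4 (0.996), Glt25d2 (0.994), Tmtc2 (0.989) and Trpm4 (0.988), with 273 genes over 0.9. Myh7 had fewer like it, with 37 genes over 0.9, led by Haghl (0.972), Pard6g (0.971), Slc36a4 (0.968) and Tmod2 (0.965). For the Myh7 to Myh6 ratio, the closest were Leprot (0.971), Fbxo38 (0.971), Btaf1 (0.969) and Cpne1 (0.967). With 7 points that share a group difference or 1 high library, these likenesses are descriptions.

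Other myosin heavy chains were mostly too low to test, with fewer than 3 libraries at 10 normalized counts. Myh4, one of those not tested, read 87.7 in control 1 and at most 8.76 in every other library. Of 11 listed, 4 were tested and 1 fell, Myh11, the smooth muscle myosin, from 3318 ± 1709 (SD, n = 4) to 1006 ± 286 (SD, n = 3), with a log2 fold change of -1.59 (adjusted p 0.0383). Its call was lost without any 1 library other than control 4 (adjusted p 0.0502 to 0.115), with scaling by library total (0.0975) and with limma without its trend and robust settings (0.0591). The non-muscle myosins Myh9 and Myh14 had log2 fold changes of 0.66 (adjusted p 0.358) and -0.51 (adjusted p 0.270). None rose at an unadjusted p under 0.05 by limma, nor by DESeq2 or edgeR.

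Among the light chains, myosin binding proteins and myosin kinases, 1 of 17 tested genes fell and none rose, and the median of the list was -0.59. Of all tested genes, 4.00% fell and 11.7% rose. The gene that fell was Mylk4, a muscle kinase of the myosin light chain kinase family. It read 10400, 4881, 9189 and 13977 normalized counts in controls 1 to 4 and 2079, 3637 and 347 in ICI-myocarditis 1 to 3, and the lowest value was again in ICI-myocarditis 3. Its log2 fold change was -2.70 (SE 0.709, adjusted p 0.0321). The call was lost without control 1, 3 or 4 or ICI-myocarditis 1 or 3 (adjusted p 0.0505 to 0.0876), with edgeR (-2.25, adjusted p 0.0607) and with limma without its trend and robust settings (adjusted p 0.0502), and the change was -1.71 without ICI-myocarditis 3. The ventricular light chain genes Myl3 and Myl2, whose products bind the Myh6 and Myh7 proteins, had -0.87 (adjusted p 0.298) and -0.78 (adjusted p 0.368). At an unadjusted p under 0.05, 4 genes of this list were lower and 1 was higher, and DESeq2 and edgeR called no gene higher. The higher gene was Mylk2, at 7.06 to 8.93 normalized counts in controls and 11.3, 21.7 and 25.2 in ICI-myocarditis 1 to 3. It reached the 10 normalized counts needed for testing only in ICI-myocarditis, the group where it is high.

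Of 11 genes for myosin folding and turnover, 1 fell, where 4.00% of all tested genes did. Unc45b, the muscle chaperone that folds the myosin head, went from 7555 ± 1313 (SD, n = 4) to 3684 ± 1195 (SD, n = 3), with a log2 fold change of -1.08 (SE 0.282, adjusted p 0.0315) and groups apart. Its call was lost without control 1, 3 or 4 or ICI-myocarditis 1 or 3 (adjusted p 0.0575 to 0.132). A fit with libraries blocked by replicate number lost it as well (adjusted p 0.125). The general chaperone genes Hsp90ab1 and Hspa8 had log2 fold changes of -0.29 (adjusted p 0.591) and -0.14 (adjusted p 0.806), the latter 0.02 when scaled by library total. The list's median was -0.40, and none rose at an unadjusted p under 0.05 by limma, nor by DESeq2 or edgeR.

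Thyroid hormone is a well known regulator of the Myh6 and Myh7 pair, and 2 of 11 tested genes of its axis were called. Of all tested genes, 15.7% were called. Dio3, the deiodinase that inactivates the hormone, rose from 4 reads over the 4 controls to 74 reads over the 3 ICI-myocarditis libraries, a rate ratio of 19.9 (95% exact interval 7.47 to 75.1, counting error only). In normalized counts it read 1.01, 2.47, 1.12 and 0 across controls 1 to 4, and 11.3, 22.5 and 24.5 across ICI-myocarditis 1 to 3. All 7 levels were low. Only the ICI-myocarditis libraries reached the 10 normalized counts of the filter, so Dio3 was tested only through the group where it is high. With any 1 of them left out, Dio3 was not tested. Its limma adjusted p of 0.00817 carries that limit. Dio2, the deiodinase that activates the hormone, read 91.3 to 126 in controls and 136, 155 and 359 in ICI-myocarditis, with a log2 fold change of 0.83 (adjusted p 0.151). Thra, the main thyroid hormone receptor of the heart, fell from 2675 ± 492 (SD, n = 4) to 1605 ± 187 (SD, n = 3), with a log2 fold change of -0.72 (adjusted p 0.0420), and its call was lost without any 1 library other than control 2 (adjusted p 0.0526 to 0.132). It was also lost with scaling by library total (-0.56, adjusted p 0.0866), with no filter on low values (adjusted p 0.0528) and with limma without its trend and robust settings (adjusted p 0.0631). Blocking libraries by replicate number lost the Thra call too (adjusted p 0.209). The cofactor Ncor1 and the partner receptor Rxra had -0.33 (adjusted p 0.384) and -0.24 (adjusted p 0.585). Hormone levels were not measured.

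Of 23 further regulators of the cardiac myosin genes, 2 rose and 1 fell, with a median of -0.23. Of all tested genes, 11.7% rose and 4.00% fell, so these counts do not set the list apart. Hdac9, a histone deacetylase that restrains cardiac growth genes, read 1360, 1482, 1466 and 1533 normalized counts in controls 1 to 4 and 783, 908 and 728 in ICI-myocarditis 1 to 3. Its groups were far apart for the spread within them, with a log2 fold change of -0.86 (SE 0.168, adjusted p 0.00987). The call held without each library in turn but was lost with libraries blocked by replicate number (adjusted p 0.0796). Nfatc1 and Nfatc2 encode calcineurin-dependent factors that work in cardiomyocytes and in T cells. Nfatc1 rose from 1248 ± 361 (SD, n = 4) to 2731 ± 713 (SD, n = 3), with a log2 fold change of 1.14 (adjusted p 0.0235). Nfatc2 rose from 1269 ± 200 (SD, n = 4) to 2368 ± 713 (SD, n = 3), with a log2 fold change of 0.87 (adjusted p 0.0412). Both calls were lost without ICI-myocarditis 2 or 3 or control 3, that of Nfatc2 also without control 1 or 4 (adjusted p 0.0675 to 0.175) and with limma without its trend and robust settings (adjusted p 0.0634). Of the 18 alternative fits, 4 lost the Nfatc1 call and 7 lost the Nfatc2 call. All T cell markers rose in the same libraries, and the part of T cells in the Nfatc values was not tested. Tead1 and Myocd, activators of muscle genes, had -0.30 (adjusted p 0.592) and -0.20 (adjusted p 0.705).

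**Figure D5:**
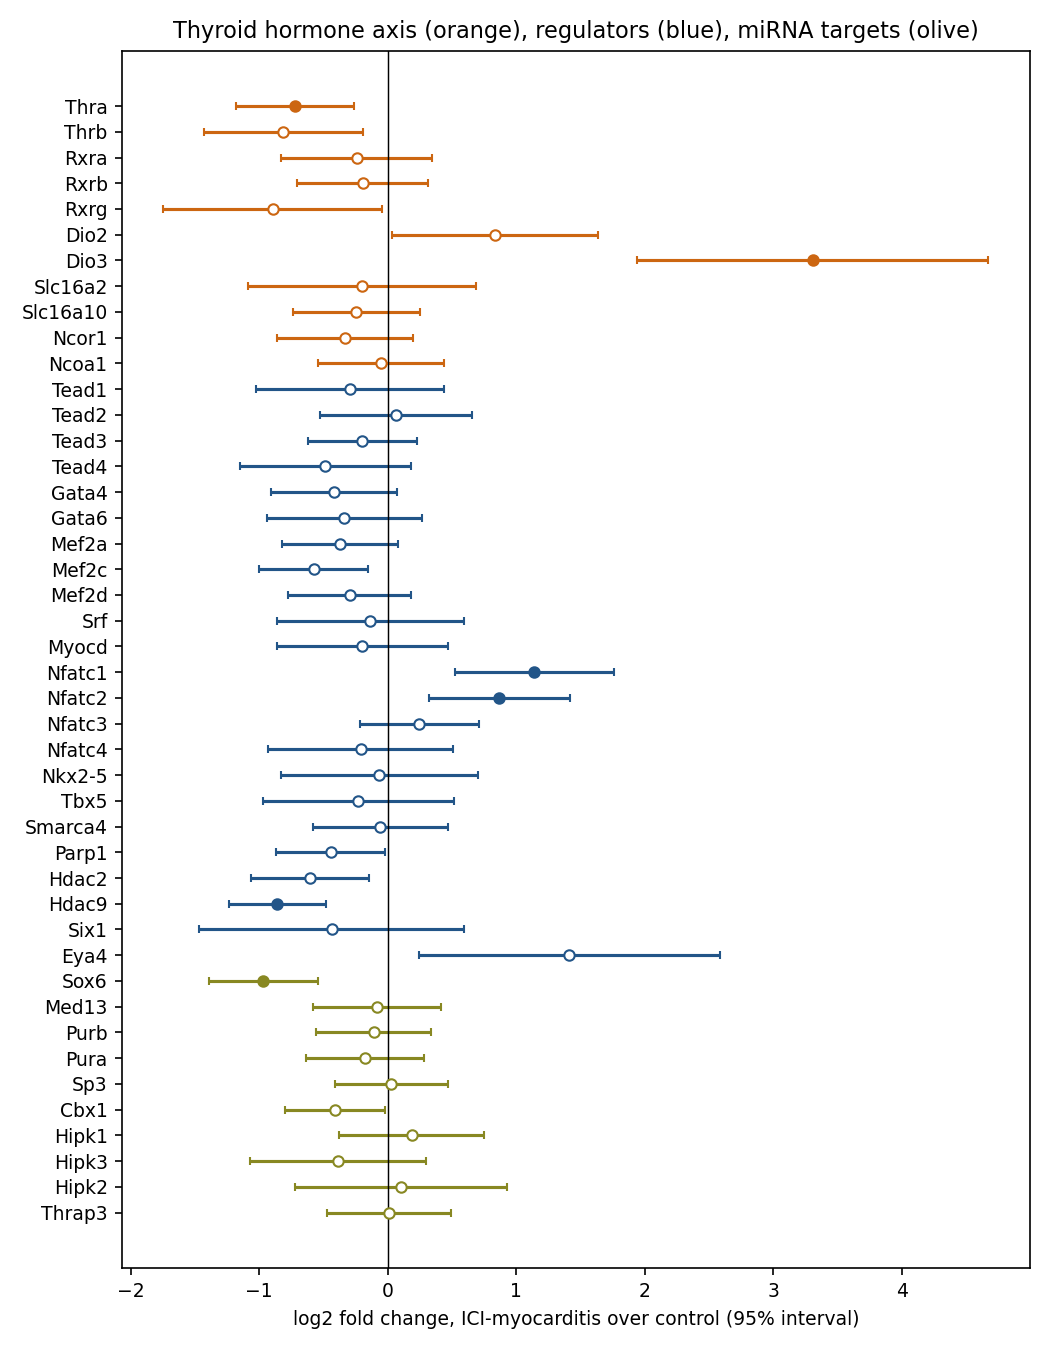
Log2 fold changes (ICI-myocarditis over control, points with 95% intervals, filled where the adjusted p is under 0.05) of the tested genes in the lists of thyroid hormone genes, regulators of the cardiac myosin genes and miRNA targets (Gata4, in both of the latter, is drawn once). Dio3, Nfatc1 and Nfatc2 are called above zero, and Thra, Hdac9 and Sox6 below it.

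Among genes known as targets of the miRNAs hosted in these loci, 1 of 11 tested fell and none rose, with a median of -0.11. Of all tested genes, 4.00% fell and 11.7% rose. Sox6, a factor known to repress slow muscle genes, read 1296, 1050, 1191 and 1352 in controls 1 to 4 and 614, 728 and 536 in ICI-myocarditis 1 to 3. The groups were apart, with a log2 fold change of -0.97 (SE 0.188, adjusted p 0.00961). The call held without each library in turn but was lost in 1 of the 18 alternative fits (adjusted p 0.0659). Hipk3 and Hipk1, kinases of transcription factors, had -0.39 (adjusted p 0.440) and 0.19 (adjusted p 0.673). None rose at an unadjusted p under 0.05 by limma, nor by DESeq2 or edgeR.

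Genes linked to the fetal cardiac programme were listed without regard to the direction expected of each. Their median is therefore not a summary of the programme. Of 15 tested, 4 rose and none fell, with a median of -0.07. Of all tested genes, 11.7% rose and 4.00% fell. Nppa, which encodes the atrial natriuretic peptide, read 8778, 6717, 6265 and 6420 in controls 1 to 4 and 89307, 38489 and 174572 in ICI-myocarditis 1 to 3. Every ICI-myocarditis library was several times above every control, at a log2 fold change of 3.60 (SE 0.460, adjusted p 0.00317), and ICI-myocarditis 3, the library with high Myh7, was again the highest. ICI-myocarditis 1 and 2 therefore had raised Nppa with Myh7 in the control range. Of the other atrial markers, 3 were tested and none was called higher, by limma, DESeq2 or edgeR. Ankrd1, a stress-responsive gene of the sarcomere, rose by 2.00 on the log2 scale (adjusted p 0.006), Nppb, the gene of brain natriuretic peptide, by 1.60 (adjusted p 0.0229), and Slc2a1, a glucose transporter gene, by 1.07 (adjusted p 0.0162). The Nppb call was lost without control 1 or 3 or ICI-myocarditis 1 or 3 (adjusted p 0.0582 to 0.0677), and the Slc2a1 call without control 3 or ICI-myocarditis 3 (adjusted p 0.0548 to 0.0558). Atp2a2 and Actc1, the cardiac actin gene, had log2 fold changes of -1.30 (adjusted p 0.174) and -0.48 (adjusted p 0.490). At an unadjusted p under 0.05, 2 genes of the programme were lower by limma, while DESeq2 called 1 lower and edgeR none.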

How the data were processed

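Reads were aligned by the authors with STAR 2.7.3 to GRCm38 (mm10), per the submitters' processing notes. The counting program, annotation and use of strand are not given in the sources used here. The deposited values are a signal, the reads of each gene over a library's size factor, made by the authors, as the values show: they were whole multiples of 1 step within 0.05 reads (a weaker sign in control 1, whose step is close to 1). Per the file headers, the authors' comparison gives a log2 fold change, a score (the test statistic) and a p-value with its adjusted value. From 23420 rows, 27 with date-like or repeated names were left out (0.143% of reads).

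The fit took genes that reached 10 normalized counts in 3 or more libraries, and used limma 3.58.1 (R 4.3.3; log2 with a pseudocount of 1, trend and robust settings, Benjamini-Hochberg over all tested genes). Recovered reads were tested with edgeR 4.0.16 and DESeq2 1.42.0 as alternatives, beside other pseudocounts, filters and scalings, limma without trend and robust settings, limma-voom, a replicate block and each library left out. Ratios were compared by exact two-sided permutation. The labels do not state that libraries came from separate animals, and p-values measure the spread between libraries, which may be technical. Other genes were named by list: up to 4 called members with the lowest p and the 2 uncalled members with the highest level, and for likeness the 4 highest correlations. Dio2, Mylk2, Myh4, Trpc4ap and the atrial genes fall outside this rule and were chosen after their values were seen. The members and lists were chosen with earlier results of these data known.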

Additional observations from a re-analysis of the deposited data

Results flagged for a closer look

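Of 37 results checked for a control library far from the other controls, 1 was picked out. The log2 ratio of Myh7 to Myh7b in control 2 was 2.17, against 2.63 to 2.71 in the other controls, and its gap to the nearest of them was 0.861 of the whole control range, above Dixon's critical value for 4 samples. Chance picks out about 1 in 20 such groups. This is the lowest control ratio, and the group difference was 2.84 without control 2 and 2.97 with it.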

How the results depend on the processing

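All 18 alternative fits kept the direction of Myh6 and Myh7b, and Myh7b passed in all 18 (-2.84 to -2.13), but not when scaled by the cardiomyocyte reference, chosen after seeing the data (-1.77). Myh6 passed with DESeq2 alone (-0.91). Myh7 turned with limma-voom (-0.15) and without ICI-myocarditis 3 (-0.29, the other fits with 1 library left out reaching 0.92), and Hspa8 with library-total scaling (0.019). The count of called genes, 2392 here, was 3998 with limma-voom and 983 to 3333 when 1 library was left out, lowest without ICI-myocarditis 3 and highest without control 2; the cause was not tested. Library-total scaling moved the median of all genes to 0.13, and 15.7% of its calls were lower against 25.5%. Without 1 library, the ratio test cannot reach 0.05. With all 7 libraries, a ratio that alone has the smallest possible p cannot pass after adjustment over 4 ratios.

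Replicate numbers did not pair the samples (correlations of -0.271, -0.206 and -0.0778 between same-numbered libraries). With the replicate block, 1777 genes were called, and Myh6 was at -0.83 (adjusted p 0.542), Myh7 at 0.18 (adjusted p 0.902) and Myh7b at -2.84 (adjusted p 0.00261).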
